A study of Mus musculus with 9 samples.

Results

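The genes described here encode the proteasome and the enzymes that attach or remove ubiquitin. They were chosen by symbol: Psm followed by a letter from a to g and a digit, Ube2, or Usp followed by a digit. Of 7676 genes with values in inbred wild type mouse lens, 107 had such a symbol, and 1 of them, Ube2v1, was also among the 190 genes of the other files. The symbols Psmc3ip and Usp6nl matched by name only, since neither encodes a proteasome subunit or a ubiquitin-specific protease, and they were kept apart from the role groups below.

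RNA was sequenced from lenses of mouse embryos at 15.5 days post conception, in 9 libraries of 30 pooled lenses each. In 3 libraries the lenses were conditional knockouts (cKO) on a mixed strain background, with the genotype Sip1 flox/flox and the MLR10Cre transgene, whose Cre is known to act in lens epithelium and fibre cells. Another 3 were mixed-background wild type controls (mixed WT), which also carried Sip1 flox/flox but no Cre. The last 3 were inbred wild type (inbred WT) of the strain given as C57Bl/6<har>. Both mixed-background groups thus shared the floxed alleles.

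Depth, estimated from the deposited values in M (mega) reads, was 25.9 to 27.4 M in cKO, 38.7 to 44.1 M in mixed WT and 14.1 to 16.7 M in inbred WT. Levels are RPKM, reads per kilobase of exon and per M mapped reads. Sip1 is the protein of Zeb2, which stood at 5.16, 5.96 and 6.31 RPKM in inbred WT. Its level in cKO and mixed WT was not analysed here, so the genotype labels were not checked by the targeted gene. All 8 lens markers, such as Cryaa and Mip, had values in inbred WT, against 0 of 16 leukocyte markers. Of 12 erythroid markers 7 had values, and of 8 endothelial markers 5 did, with sums of 14.6 to 18.5 RPKM per library for the endothelial ones. The lowest mean of any listed gene was 2 RPKM, so a marker without a value was not shown to be absent.

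Proteins marked for removal carry chains of ubiquitin, which an E1 enzyme activates, an E2 enzyme carries and an E3 ligase hands to the target. The 26S proteasome holds a 20S core, a barrel of alpha and beta subunits with the proteolytic sites inside, and a 19S cap whose ATPases unfold the target while other subunits bind and remove its ubiquitin. Ubiquitin-specific proteases (Usp) take ubiquitin off again. In the lens, fibre cells lose their organelles as they mature, and the ubiquitin-proteasome system is known to be active in lens epithelium and young fibres.

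Transcripts of the 26S proteasome were abundant in inbred WT lens, with the beta subunits and the ATPases at the top. E2 genes lay lower, and the Usp genes with values lay near the median listed gene. All 31 constitutive 26S subunits lay above the median listed gene, which had 7.65 RPKM. The group medians were 103 RPKM for 7 beta subunits, 79.4 for 6 ATPases, 40.1 for 11 non-ATPases and 29.4 for 7 alpha subunits. They were 17.4 RPKM for 5 activators and inhibitors, 13.3 for 29 E2 genes, 10.6 for 7 assembly chaperones and 7.24 for 32 Usp genes. Over all 107 the median was 16.2 RPKM, 75 of them (70.1%) lay above the median listed gene, and together they held 0.580% of the summed RPKM. These levels describe genes chosen by name and were not tested.

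**Figure D1:**
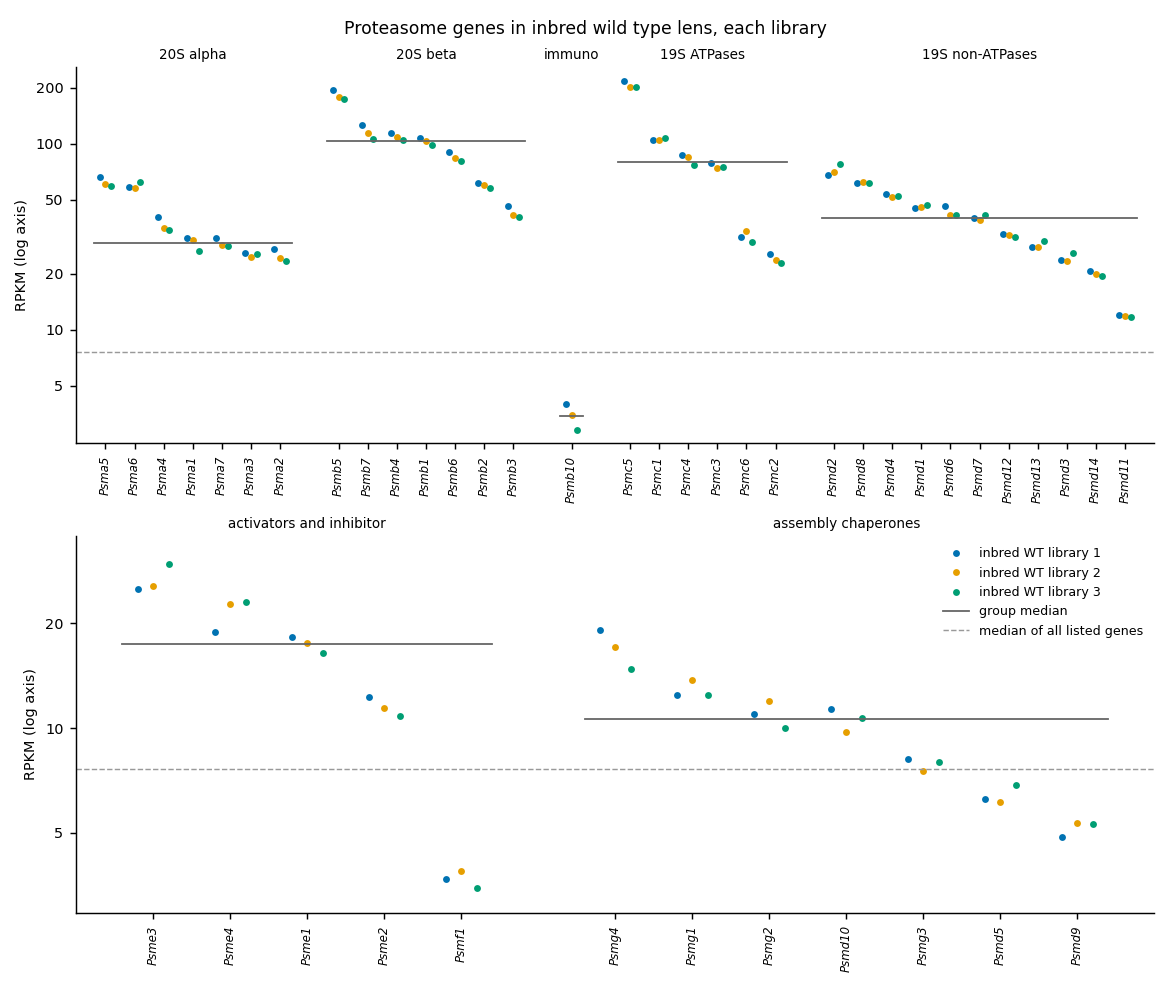
RPKM (log axis) of each proteasome gene in the 3 inbred WT libraries (coloured points), by role, with the group median (solid line) and the median of all listed genes, 7.65 RPKM (dashed). All 31 constitutive subunits lie above the dashed line, and Psmb10 lies below it.

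The proteolytic subunits of the core were among the most abundant members. Psmb5, which carries the chymotrypsin-like site, had 194, 178 and 175 RPKM in the 3 inbred WT libraries. Psmb7, with the trypsin-like site, had 126, 114 and 107 RPKM, and Psmb6, with the caspase-like site, had 90.3, 83.4 and 80.5 RPKM. Library 1 was the highest for all 3 genes and for every one of the 7 beta subunits. The non-catalytic Psmb4 and Psmb1, at 109 ± 5.08 and 103 ± 4.13 RPKM (SD, n = 3), lay between Psmb7 and Psmb6, while Psmb2 at 59.99 ± 1.86 and Psmb3 at 42.6 ± 3.30 RPKM were the lowest of the beta ring.

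Of the immunoproteasome subunits, which replace the catalytic ones in interferon-treated and immune cells, Psmb10 was the one with values. It had 4.01, 3.48 and 2.90 RPKM, below the median listed gene in every library. Psmb7, which it replaces, was 33.7 ± 2.78 times as high (SD, n = 3). Psmb8, Psmb9 and the thymus subunit Psmb11 were not analysed here, and the lowest mean of any listed gene was 2 RPKM. Beside Psmb10, 0 of 16 leukocyte markers and 2 of 10 interferon-response genes had values, among them B2m at 5.95 ± 1.27 RPKM.

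The alpha subunits, which form the outer rings and the gate of the barrel, lay lower and closer together than the beta subunits. Psma5 was the highest at 66.2, 60.5 and 59.0 RPKM, with Psma6 at 59.6 ± 2.47 and Psma4 at 36.6 ± 3.39 RPKM. Psma2 was the lowest at 27.1, 24.4 and 23.3 RPKM, after Psma3 at 25.4 ± 0.76 and Psma7 at 29.3 ± 1.52 RPKM. The highest alpha subunit was thus 2.48 times the lowest, against 4.28 times among beta subunits, and 7.32 times across both rings, although the rings are built from equal numbers of each.

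Among the 19S ATPases, which form the hexamer that unfolds substrates, Psmc5 was the most abundant of all 107 genes, at 216, 202 and 202 RPKM. Psmc1 had 106 ± 1.58 and Psmc4 had 82.9 ± 5.35 RPKM. Psmc2 was the lowest ATPase at 25.7, 23.7 and 22.8 RPKM, and Psmc5 was 8.60 ± 0.23 times as high (SD, n = 3). Psmc6 and Psmc3 stood at 31.8 ± 2.27 and 75.9 ± 2.43 RPKM. The libraries of Psmc5 and Psmc2 did not overlap. Their ratio and the place of Psmc2 depend on gene length, as given below.

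The 19S non-ATPases were led by Psmd2, a scaffold subunit, at 67.6, 70.1 and 78.1 RPKM, with Psmd8 at 61.8 ± 0.49 RPKM. Psmd4, a ubiquitin receptor, had 54.0, 51.9 and 52.4 RPKM. Psmd14, the metalloprotease that cuts chains off the substrate, had 20.7, 19.9 and 19.5 RPKM, lower than Psmd4 in every library. Psmd3 at 24.4 ± 1.41 and Psmd11 at 11.9 ± 0.19 RPKM were the other low members. The non-ATPases had the steadiest values of the role groups with several members, with a median coefficient of variation (CV, SD over mean) of 3.05%, against 6.39% over all 107 genes and 7.21% over all listed genes.

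These levels depend on the length by which reads are divided. The exon lengths in the files were compared with the principal transcript of each gene in GENCODE M21 (build GRCm38), and 26 of 31 subunits had higher values on the transcript length. Psmb6 then stood at 199 RPKM, above Psmb5 at 187, which turns their order. Psma7 came to 98.4 instead of 29.3 RPKM and Psmb3 to 128 instead of 42.6. The alpha median became 66.0 RPKM, the beta median 128, the ATPase median 111 and the non-ATPase median 56.4, so beta and ATPase subunits still had the highest medians. The highest over the lowest subunit became 4.31 in the alpha ring and 3.28 in the beta ring, which turns the order of these ratios as well. The spread between subunits, as a CV over all 31, was 58.2% on the transcript length and 73.5% on the files' length. An order among single subunits therefore cannot be read from the RPKM alone. Near-identical copies add to this: of the runs of 31 bases (words) in the principal transcript, 74.0% of those of Psmb5, 66.8% of Psmb3, 64.0% of Psma5, 45.3% of Psmd2 and 39.7% of Psmc1 also occur in transcripts of other annotated genes. The counting of such reads is not stated, and 16 of 107 members shared over 20% of their words. Others among the 16 were Psma3, Psma4, Psmd11, Psme1, Psme2, Psmg3, Ube2e1, Ube2q2, Ube2v1 and Usp1.

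**Figure D2:**
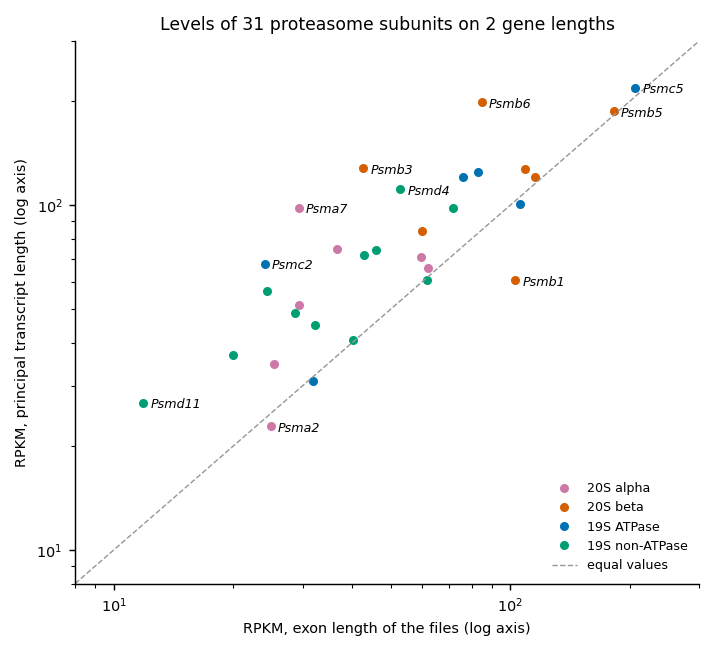
RPKM of 31 subunits computed with the exon length of the files (horizontal) and with the length of the principal transcript (vertical), both on log axes, with a dashed line of equal values. Psma7, Psmb3 and Psmb6 lie far above the line, and Psmb1 lies below it at 60.6 against 103 RPKM.

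Promoters of the catalytic subunits Psmb5 and Psmb6 are shown, as 2 of the 4 subunit genes with the motif below (the others are Psmc6 and Psmd12), because Nfe2l1, a factor known to raise proteasome genes when proteasome activity falls, binds antioxidant response elements, and Nfe2l1 itself had 30.2, 34.0 and 40.2 RPKM. The sequences are upstream of the RefSeq gene starts (GRCm38.p6), with a match to TGACNNNGC, searched on both strands, in capitals. Psmb5 is at chr14:54617996-54618087 on the minus strand, and its match ends 39 bases before the start. Psmb6 is at chr11:70525303-70525356 on the plus strand, and its match ends directly before the start.
Psmb5: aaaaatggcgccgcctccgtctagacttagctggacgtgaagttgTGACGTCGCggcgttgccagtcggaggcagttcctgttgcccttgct
Psmb6: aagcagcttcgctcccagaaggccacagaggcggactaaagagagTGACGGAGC
In windows of 250 bases before to 50 after the start, this motif was in 4 of 25 subunit promoters with a sequence (16.0%), 17.2% of 5877 listed genes and 12.4% of 32851 promoters in all. The letters CGGAAG were in 17 of 25 (68.0%), against 39.0% of listed genes and 16.9% of all promoters. The letters CCAAT were in 10 of 25 (40.0%), against 43.9% of listed genes, and GGGCGG was in 15 of 25 (60%), against 73.0%. The motifs were chosen after values had been seen, and a match is not a binding site.

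The activators, which cap the core in place of the 19S complex, were led by Psme3, the nuclear PA28 gamma, at 25.2, 25.7 and 29.7 RPKM. Psme4, which encodes PA200, had 18.9, 22.8 and 23.0 RPKM. The partners Psme1 and Psme2, which form 1 ring together and are known to respond to interferon, had 17.4 ± 0.92 and 11.5 ± 0.74 RPKM, a ratio of 1.51 ± 0.02 (SD, n = 3). For Psme2, 66.2% of the words of its transcript also occur in Psme2b, so its reads could be split between both. On the transcript length Psme1 had 34.6 RPKM, above Psme3 at 29.8, so the order of the activators depends on the length. The inhibitor Psmf1 was the lowest of this group at 3.68 ± 0.20 RPKM.

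Assembly chaperones, which guide ring formation and leave before or as the particle is complete, had a median of 10.6 RPKM, against 46.0 RPKM for the 31 subunits. Psmg4 had 19.1, 17.2 and 14.8 RPKM, Psmg1 had 12.9 ± 0.77 and its partner Psmg2 had 10.99 ± 0.99 RPKM. Psmg3, the partner of Psmg4, had 7.89 ± 0.32 RPKM. The base chaperones Psmd10, Psmd5 and Psmd9 had 10.6 ± 0.79, 6.42 ± 0.40 and 5.17 ± 0.26 RPKM. In contrast to these, Pomp, a further chaperone of the core that the symbol rule does not cover, had 143 ± 8.89 RPKM.

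E2 genes covered a wide range, from 70.5 RPKM for Ube2d3 to 2.25 RPKM for Ube2e2, and 20 of 29 lay above the median listed gene. Ube2d3 and Ube2d2, E2 enzymes that work with many E3 ligases, had 67.7, 70.2 and 73.7 RPKM and 52.6, 51.5 and 50.4 RPKM. The NEDD8-conjugating Ube2m, which serves cullin ligases, had 59.7, 58.6 and 61.2 RPKM. Ube2f, the other NEDD8 enzyme, had 4.47, 4.02 and 3.72 RPKM, and Ube2m was 14.8 ± 1.58 times as high (SD, n = 3).

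Other E2 genes near the top were Ube2o, Ube2s, Ube2g2 and Ube2q1. Ube2o, a large enzyme known to clear proteins from maturing red cells, had 34.5, 40.8 and 36.6 RPKM. Of 12 erythroid markers 7 had values, summing to 1077 to 1123 RPKM per library, and the part of red cells in the Ube2o level was not tested. Ube2s and Ube2c, which work with the anaphase-promoting complex, had 25.2 ± 3.28 and 7.56 ± 1.07 RPKM, beside 10 of 10 proliferation markers with a sum of 90.6 to 95.1 RPKM. Ube2g2, which acts in the removal of proteins from the endoplasmic reticulum, had 21.7 ± 1.84, and Ube2q1 had 18.5 ± 0.64 RPKM.

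Ube2k, known for chains linked through lysine 48 in other mammals, had 16.0 ± 0.60 RPKM. Ube2l3, which serves ligases that take ubiquitin onto a cysteine, had 6.97, 8.38 and 4.85 RPKM and the largest CV of all 107 genes, 26.4%. Counting error alone would give Ube2l3 a CV of 4.26%. At the low end Ube2w, which modifies the amino terminus, had 3.75 ± 0.18 RPKM, Ube2ql1 had 2.995 ± 0.17 and Ube2e2 had 2.25 ± 0.04 RPKM. The transcript length changes the order here as well. On it Ube2m had 88.1, Ube2v1 60.8 and Ube2d2 51.5 RPKM, above Ube2d3 at 49.2, and Ube2w had 19.3 RPKM, above the E2 median of 17.7. Ube2s came to 20.1 and Ube2c to 20.3 RPKM, so Ube2s was no longer the higher of them. Ube2d1, Ube2t and the ISG15 enzyme Ube2l6 were not analysed here.

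**Figure D3:**
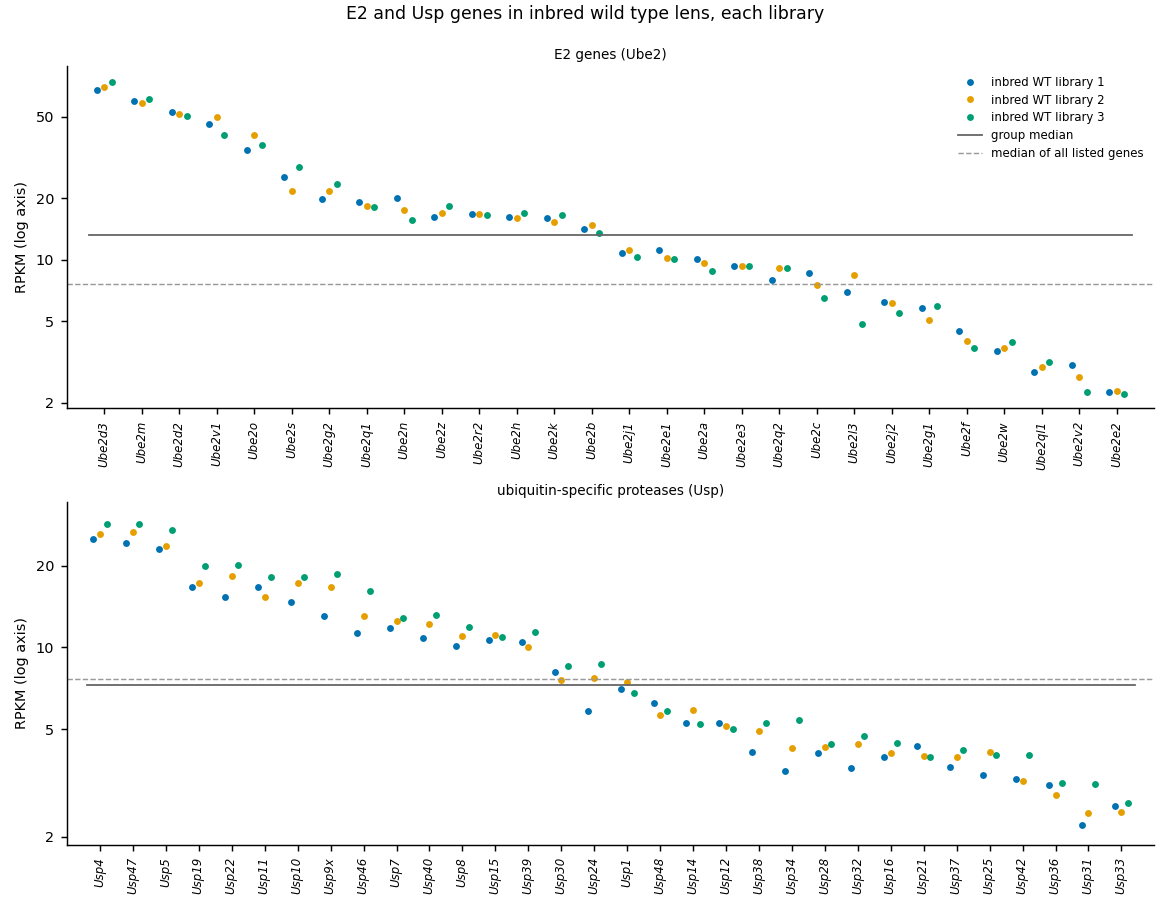
RPKM (log axis) of 28 of the 29 E2 genes (top) and 32 Usp genes (bottom) in the 3 inbred WT libraries, with the group median (solid line) and the median of all listed genes (dashed, 7.65 RPKM). The E2 median, 13.3 RPKM, lies above the dashed line and the Usp median, 7.24 RPKM, just below it, and library 1 is the lowest of the 3 for 21 Usp genes.

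Usp genes were expressed at lower levels than the proteasome, with 15 of 32 above the median listed gene. Usp4 had 25.1, 26.3 and 28.6 RPKM, Usp47 had 24.3, 26.7 and 28.5 RPKM, and Usp5, which takes apart free ubiquitin chains, had 23.0, 23.6 and 27.1 RPKM. Library 1 was the lowest for all 3. Usp19 followed at 18.0 ± 1.77, Usp22, of the SAGA coactivator, at 18.0 ± 2.46, Usp11 at 16.7 ± 1.43, Usp10 at 16.7 ± 1.81 and Usp9x at 16.2 ± 2.89 RPKM.

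Usp14, which works on the proteasome itself, had 5.27, 5.85 and 5.196 RPKM, below the median listed gene in every library. The deubiquitinase of the 19S lid, Psmd14, was 3.70 ± 0.27 times as high as Usp14 (SD, n = 3). Usp7, known for its action on Mdm2 and p53, had 12.4 ± 0.53 RPKM, and Usp39, a splicing factor that lacks the protease activity, had 10.6 ± 0.69. Usp1, of DNA repair, had 7.07 ± 0.35 RPKM. The lowest were Usp42 at 3.51 ± 0.45, the nucleolar Usp36 at 3.03 ± 0.16, Usp31 at 2.60 ± 0.49 and Usp33 at 2.57 ± 0.10 RPKM. The order of the Usp genes depends on the length as well. On the transcript length Usp5 was the highest at 35.4 RPKM, and Usp7 had 26.7 RPKM, level with Usp4 at 26.7. At the low end Usp31 had 2.60 RPKM, Usp15 had 3.09 instead of 10.9, and both lay below Usp33 at 3.67. Usp18, which removes ISG15, and the Y-linked Usp9y were not analysed here.

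Of 143 protein-coding genes of GENCODE M21 that follow the symbol rule, 107 had values and 36 were not analysed here. All constitutive alpha, beta and 19S subunits had values, as did 29 of 37 E2 genes and 32 of 55 Usp genes.

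Some genes around the members in the pathway were also abundant in inbred WT, while others of the same lists were low. The 7 E1 genes had a median of 21.1 RPKM, and the 11 genes of the ubiquitin precursor list one of 81.6 RPKM. Among them Nae1 and Uba6 (E1) had 2.11 and 2.77 RPKM and Urm1 (precursor list) had 3.89 RPKM, below the median listed gene. The next genes named are at or near the top of their lists. The ubiquitin precursor Ubb had 846 ± 38.0 RPKM, and Nedd8, a ubiquitin-like modifier, had 172 ± 21.1 RPKM. Uba1, the main E1 for ubiquitin, had 101 ± 5.41 RPKM, above every E2 gene. Shfm1, a small subunit of the 19S lid that the rule does not cover, had 150 ± 22.7 RPKM, and Vcp, the segregase that pulls ubiquitinated proteins out of complexes, had 102 ± 9.12 RPKM. The 147 genes of an E3 ligase list had a median of 7.79 RPKM, close to that of the Usp genes.

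The 3 inbred WT libraries differed from each other in a way that followed gene length. The median log2 ratio of library 3 over library 1 was 0.21 for Usp genes, of which 27 of 32 were higher in library 3, and -0.15 for beta subunits, of which 0 of 7 were. Over all 7676 genes 62.4% were higher in library 3. Usp genes have long exons, with a median of 5386 bases, and beta subunits short ones, with a median of 1214 bases. Among members of 8000 bases or more the median ratio was 0.28, and among all genes of that length it was 0.26. Below 1500 bases it was -0.12 among members and -0.13 among all genes.

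Across genes, the Spearman correlation of exon length with this ratio was 0.52 over the 107 members and 0.50 over all 7676 genes. It was 0.39 over the 32 Usp genes and -0.14 over the 29 E2 genes, so E2 genes did not show it among themselves. The points share 2 libraries, and genes are not independent replicates. Of the 5 members with the largest CV, Usp34 at 21.6%, Usp24 at 19.7% and Usp31 at 18.7% were higher in library 3, with log2 ratios of 0.62, 0.58 and 0.51. Psmc3ip at 18.8% was lower in it, with a ratio of -0.51, as was Ube2l3 with -0.52. RNA quality was not measured in the files, and its part in this pattern was not tested.

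**Figure D4:**
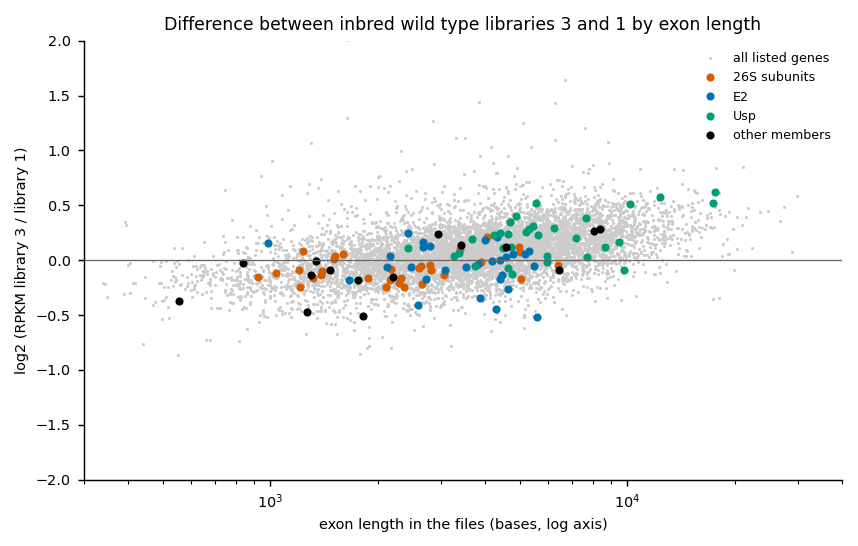
The log2 ratio of RPKM in inbred WT library 3 over library 1 against exon length in bases (log axis), for all listed genes (grey) and for members by role (coloured). Most long Usp genes lie above 0 and most short 26S subunits below it, while E2 genes show no such order (Spearman -0.14), and 4 genes fall outside the axes.

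Between cKO and mixed WT lenses, Sip1 loss, the Cre transgene and depth (25.9 to 27.4 M against 38.7 to 44.1 M) differ together. Their effects cannot be told apart. This comparison included 1 member, Ube2v1. Its protein is an E2 variant without the active cysteine, which pairs with the enzyme Ube2n to build chains linked through lysine 63. Ube2v1 had 33.3, 26.3 and 31.1 RPKM in cKO, against 42.9, 41.5 and 44.8 RPKM in mixed WT. It had 46.1, 49.7 and 41.0 RPKM in inbred WT. Every cKO library lay below every wild type library, and the wild type groups overlapped. Such separation was common here. Between cKO and mixed WT the libraries did not overlap for 100% of 190 genes, and between cKO and inbred WT for 93.8% of 128.

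Ube2v1 averaged 30.2 ± 3.61 RPKM in cKO and 43.1 ± 1.62 RPKM in mixed WT (SD, n = 3 each), so it was lower in cKO by a log2 change of -0.51 (SE 0.10, 95% interval -0.72 to -0.30, limma on log2(RPKM + 0.5), Benjamini-Hochberg adjusted p = 0.00034). This rests on an estimated 1848 to 2483 reads of the gene in cKO, against 4515 to 5369 in mixed WT. Of the 190 genes 99.5% passed this test, 45.3% with lower values in cKO. The libraries of the 2 groups did not overlap for 100% of them, so the call is the rule for these files. These genes, and with them the 128 shared with inbred WT, may have been selected for a difference between groups. The p-values and intervals take no account of such a selection, so they cannot be read as evidence for a change of Ube2v1. Only 5 of the 190 genes differed by less than Ube2v1 in RPKM as deposited. After quantile normalization its change was -0.14 and no longer passed (adjusted p = 0.30, limma). In these bulk samples, fewer cells of a type and less RNA per cell cannot be told apart.

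Against inbred WT, whose mean was 45.6 ± 4.39 RPKM, Ube2v1 was lower in cKO by a log2 change of -0.59 (SE 0.11, 95% interval -0.82 to -0.36, limma adjusted p = 9.7e-05), where 93.8% of 128 shared genes passed, 60.9% with lower values in cKO. Quantile normalization ended this call too, at -0.27 (adjusted p = 0.075, limma). Between mixed WT and inbred WT, the change of -0.08 did not pass (SE 0.10, 95% interval -0.29 to 0.13, limma adjusted p = 0.51), where 49.2% of 128 genes did and the libraries of 57% did not overlap. It passed after quantile normalization, at -0.21 (adjusted p = 0.0091, limma). The 3 comparisons share libraries pairwise, and strain background, the floxed alleles, depth and file type differ together between inbred WT and the other groups and cannot be told apart.

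**Figure D5:**
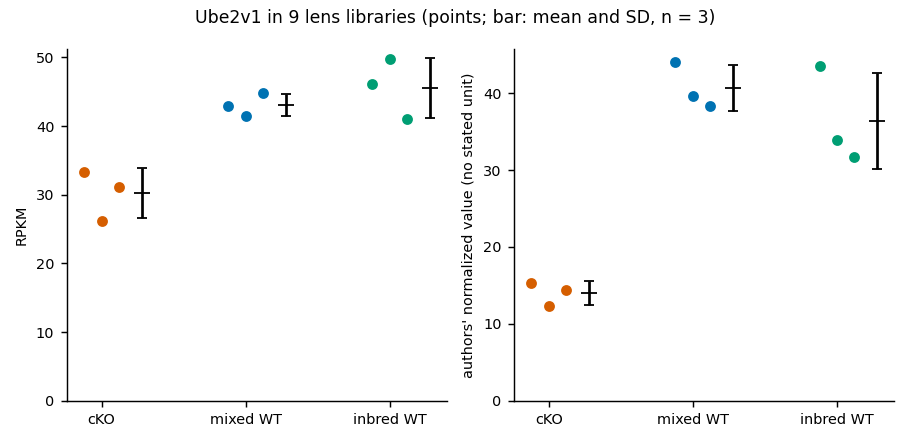
Ube2v1 in cKO, mixed WT and inbred WT libraries (points), with the mean and SD of 3 libraries beside them, as RPKM (left) and as the authors' normalized value (right). The cKO points lie below all wild type points on both scales, at 26.3 to 33.3 RPKM and at normalized values of 12.3 to 15.3.

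The authors' normalized values gave a larger difference for Ube2v1 than the RPKM did. They were 15.3, 12.3 and 14.4 in cKO, against 44.1, 39.7 and 38.3 in mixed WT and 43.5, 33.9 and 31.8 in inbred WT. The cKO mean was 0.345 of the mixed WT mean on this scale and 0.702 of it in RPKM. The smallest change in normalized mean among the 190 genes was 2.50-fold in either direction, and that of Ube2v1 was 2.90-fold. Per read, its normalized value in inbred WT was 0.0118 of that of the median gene. In cKO and in mixed WT 2 of 128 genes with a known length had a lower value per read.

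Ube2v1 shares its sequence with another annotated gene. In GENCODE M21 it lies at chr2:167607638-167632095 on the minus strand (GRCm38). Gm20431, at chr2:167607850-167661496 on the same strand, overlaps both Ube2v1 and Tmem189, which lies at chr2:167642608-167689822. Of the 31-base words of the principal Ube2v1 transcript 83.3% occur in transcripts of other genes, 81.8% in Gm20431, and 100% of its coding words do. Reads of Ube2v1 and of Gm20431 therefore cannot be told apart over most of the transcript, and its RPKM is uncertain in this respect. Tmem189 had 13.7, 9.97 and 17.5 RPKM in inbred WT, while its normalized values were 0.75, 0.625 and 1.

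The paralog Ube2v2 can be told apart from it. A coding stretch of 90 bases is printed for each, bases 64 to 153 of the Ube2v1 coding sequence and 58 to 147 of that of Ube2v2 on chromosome 16, with the 12 bases that differ in capitals. The third line is the same stretch in Gm20431, with 0 differences from Ube2v1.
Ube2v1: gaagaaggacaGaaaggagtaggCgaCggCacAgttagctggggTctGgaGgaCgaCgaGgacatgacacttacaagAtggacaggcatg
Ube2v2: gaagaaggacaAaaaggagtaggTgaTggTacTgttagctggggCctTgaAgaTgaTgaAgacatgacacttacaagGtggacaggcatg
Gm20431: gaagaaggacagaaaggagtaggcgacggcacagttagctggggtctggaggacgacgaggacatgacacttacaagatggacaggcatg
Ube2v2 had 3.06, 2.67 and 2.25 RPKM in inbred WT, far below Ube2v1 on this scale. Their common partner Ube2n, the enzyme with the active cysteine, had 19.95, 17.5 and 15.7 RPKM. In RPKM, which for Ube2v1 may hold reads of Gm20431, Ube2v1 was 2.58 ± 0.26 times as high as Ube2n. Ube2n was 6.70 ± 0.25 times as high as Ube2v2 (SD, n = 3 each). The authors' normalized values put Ube2v1 below both, with inbred WT means of 36.4 for Ube2v1, 176 for Ube2v2 and 575 for Ube2n. Of the coding words of Ube2v2 and of Ube2n, 100% also occur in other genes. Which scale gives the true order was not tested.

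Other ubiquitin genes in the same 190, from lists written with earlier results of these data known, moved both ways. Of 4 genes of the E3 list, Trim55 and Fbxo10 were higher in cKO than in mixed WT and Rnf113a1 and Birc7 were lower. All 4 passed the limma threshold, as did 99.5% of the 190 genes. The median log2 change of the 4 was 0.38, against 1.37 over all 190 genes. Trim55, a ligase of striated muscle, had 5.23, 4.67 and 4.87 RPKM in cKO, against 0.506, 0.610 and 0.521 in mixed WT. Fbxo10, an F-box protein, had 11.8 ± 0.75 RPKM in cKO and 2.57 ± 0.54 in mixed WT (SD, n = 3 each). Its libraries did not overlap between these groups, as was so for 100% of the 190 genes.

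Birc7, an inhibitor of apoptosis with a RING domain, had 7.86, 11.2 and 8.39 RPKM in cKO, against 35.2, 36.1 and 40.7 in mixed WT. Rnf113a1, another RING protein, had 58.4 ± 3.28 RPKM in cKO and 141 ± 9.27 in mixed WT (SD, n = 3 each). The 1 deubiquitinase outside the Usp family, Uchl1, which is abundant in neurons, was higher in cKO by a log2 change of 3.82 (SE 0.09, limma adjusted p = 7.1e-11). The log2 changes of these 5 genes ran from -1.98 to 3.82. Since the 190 genes may have been selected for a difference, their calls and p-values cannot be read as evidence for a change.

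The authors' normalized value per read set a few members apart in inbred WT. In 12 of 107 members (11.2%) it was less than 0.5 of that of the median gene, as it was in 553 of 7676 listed genes (7.204%). It was lowest for Ube2l3, at 0.0011 of the median gene, and Ube2v1, at 0.0118, then for Psma3 at 0.159, Usp8 at 0.238 and Psma5 at 0.259. Among these 12 members, 5 shared over 20% of their 31-base words with other genes, against 11 of the other 95. Psma5 shared 64.0% of its words and Usp8 shared 0%. Ube2l3 shared 16.9% of its words, and 100% of its coding words.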

How the data were processed

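The authors deposited 2 values per gene and library, an RPKM and a normalized expression value (here treated as a score, since no header names its unit), and for inbred WT also an exon length in bases, per the file headers. The submitters' processing notes name CASAVA 1.8.2, and the labels' protocols a TruSeq RNA kit. For the aligner, annotation and genome build the entry is "not given in the sources used here". Repeated symbols (12, in 24 of 7700 rows) were dropped from the inbred WT list. RPKM times exon length fell on steps of 1 read, from which each depth was estimated (87.7% to 100% of low values were whole within 0.1 reads). For cKO and mixed WT the exon lengths of inbred WT were used, on 64 or 65 low values per library, against 150 in inbred WT. Replicates differed by more than counting noise (chi-square per degree of freedom 6.97 to 16.7).

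Groups were compared by limma 3.58.1 under R 4.3.3, with log2(RPKM + 0.5) as the value, a trended variance and a floor of 1 RPKM on the mean of the libraries compared. P-values were adjusted over all 190 or 128 genes by Benjamini-Hochberg, with a threshold of 0.05. With 3 libraries a group, exact permutation cannot give a p under 0.1. The test was tried on simulated data. Replicates are independent pools of lenses, per the labels' protocols. Transcripts and shared words came from GENCODE M21, where all 107 members were matched by symbol, and promoters from RefSeq (GRCm38.p6), where 85 were. Named genes were every member in the cKO files, the highest and lowest of each role, enzymes of known function and the 5 with the largest CV. Members, lists and roles were chosen with earlier results of these data known. Alternatives tried were other pseudocounts, no floor, quantile normalization, median centring, no trend, a joint fit of 9 libraries, a replicate block, other lengths and leaving out each library. Some genes are not reported here.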

Additional observations from a re-analysis of the deposited data

How the results depend on the processing

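Of the level and count results in inbred WT and between groups, 77 of 95 values under other settings kept their direction, call or replicate spread. Several settings, such as leaving out 1 library, could hardly move a level beyond that spread, so this count does not measure robustness. Quantile normalization left 0 members called between cKO and mixed WT and 0 between cKO and inbred WT, and called 1 between mixed WT and inbred WT. Its construction sets the distributions of libraries equal over 190 or 128 genes. Of these, 99.5% passed between cKO and mixed WT, 93.8% between cKO and inbred WT and 49.2% between mixed WT and inbred WT. On the authors' normalized values, a setting chosen after seeing the data, the mixed WT against inbred WT change was 0.14 for Ube2v1 (adjusted p = 0.49, limma) and 0.089 for Uchl1, on the other side of 0 from the RPKM. Between cKO and mixed WT, the median log2 change over the 190 genes was 1.37 as reported, 0.49 under median centring and 0.19 under quantile normalization. Ube2v1 was then at -1.39 and -0.14, Fbxo10 at 1.14 and 1.22, Trim55 at 1.49 and 1.19, and Uchl1 at 2.93 and 3.58, in that order of settings. Over its 15 alternatives the adjusted p of Ube2v1 between cKO and mixed WT ranged from 1.1e-07 to 0.30 and its log2 change from -1.39 to -0.14. Leaving out 1 library at a time it was -0.58 to -0.41 and always passed.

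Levels moved by more than the spread between libraries as follows. With the normalized value per exon length, the median was 46.7 for 20S core subunits, 42.1 for non-ATPases and 9.06 for E2 genes, the highest over lowest core subunit was 38.0 and the share of all members 0.9002%. With the principal transcript length, chosen after seeing the data, the medians were 79.3 for the core, 111 for ATPases, 56.4 for non-ATPases, 17.7 for E2 and 8.71 for Usp genes, and the core ratio was 8.70. Without members sharing over 20% of their words, the ATPase median was 75.9, the core ratio 4.63 and the share 0.450%. With Psmd5, Psmd9 and Psmd10 counted as subunits, also chosen later, the non-ATPase median was 30.45. The cause of these moves other than the change of length or members was not tested.

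Deviations of same-numbered libraries from their group means correlated at -0.10, -0.11 and -0.15 between cKO and mixed WT. They correlated at -0.52, -0.15 and -0.24 between mixed WT and inbred WT, and at -0.01, 0.24 and 0.20 between cKO and inbred WT. With 3 libraries a group, these values cannot decide whether the replicate numbers pair the samples. With the replicate block, the change of Ube2v1 between cKO and mixed WT was -0.51 (limma adjusted p = 2.3e-05) with 1 member called, and the block changed the call of no member in the 3 comparisons. Depth limits the lowest members, which had as few as 52 reads in a library.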
